A study of Mus musculus with 9 samples.

Results

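Chemokines are small secreted proteins that guide the migration of leukocytes and other cells, and they act through membrane receptors coupled to G proteins. They are named after the spacing of their first cysteines (C, CC, CXC, CX3C). Some, such as Cxcl12 and Ccl19, are made steadily by stromal and endothelial cells, whereas others, such as Ccl2, Ccl3 and Cxcl1, are induced during inflammation. In the back of the eye, they steer monocytes and macrophages in the vascular choroid and microglia in the retina.

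The family was taken as every non-control probe named Ccl, Cxcl, Ccr or Cxcr with digits and at most 1 letter, plus Xcl1, Xcr1 and Cx3cl1. This gave 55 genes, 37 chemokines and 18 receptors, on 66 probes, of 31829 gene names and 39429 probes on the array. The rule reads names alone. The names are those of the array design: Cxcr7 is now called Ackr3, and all 55 genes matched a RefSeq gene.

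The arrays compared 3 laser-dissected layers of the mouse eye, namely the choroid (CH), the retinal pigment epithelium (RPE) and the photoreceptors (PR), with 3 arrays of each. All samples came from healthy, untreated female C57BL/6 mice (C57BL/6JOlaHsd in the methods), which the labels give as 6 months old within 2 weeks (the methods of the study state a different age). Amplified RNA of each tissue was labelled with Cy5 and hybridised against 1 common reference of RPE and choroid RNA labelled with Cy3. A value is therefore the log2 ratio of tissue over reference for 1 probe, where 0 equals the reference, and it can be compared between tissues but not between probes. Each sample is a layer of the eye with all its cells, so that fewer cells of a type and less RNA per cell cannot be told apart. Of the markers of the layers, 12 of 12 rod and cone markers were higher in PR than in RPE and in CH, 8 of 10 RPE markers were higher in RPE than in CH, and 7 of 7 fibroblast markers were lower in RPE than in CH. The array of RPE replicate 2 stood apart, with 91.7% of all probes well above background against 62.1% to 71.2% on the other 8 arrays.

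A gene was called when a probe passed a fold change above 2.5 (1.32 on the log2 scale) and an adjusted p below 0.01 in limma, with Benjamini-Hochberg adjustment over all probes. All adjusted p-values below come from that fit, in which the 3 comparisons share arrays. Where no array of a tissue had a probe well above background, the difference is given as a lower limit, written as "at least N-fold". This limit sets the brighter tissue's mean signal in the Cy5 channel against the lowest signal that counted as measured on each array of the dimmer tissue (or the probe's own, if higher), so it can differ from the fold of the ratios.

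NF-kappaB is a family of transcription factors known to switch on many inflammatory chemokines. RefSeq promoters (GRCm38.p6, 250 bases before to 50 after the start) were at hand for 40 of the 55 genes. Its consensus was searched on both strands. It was present in 9 of their 44 promoters (20.5%), against 4.51% of all 32851 promoters. The 4 sequences below hold such matches, with the consensus in capitals. They are from chromosome 5, where Cxcl1 and Cxcl10 were called, whereas Cxcl2 and Cxcl3 were not well above background on any array. Each runs 5′ to 3′ up to the last base before the start of the gene: Cxcl1, chr5:90891135-90891244 on the + strand, Cxcl2, chr5:90903789-90903898 on the + strand, Cxcl3, chr5:90785991-90786100 on the + strand, and Cxcl10, chr5:92348890-92349059 on the - strand.
Cxcl1: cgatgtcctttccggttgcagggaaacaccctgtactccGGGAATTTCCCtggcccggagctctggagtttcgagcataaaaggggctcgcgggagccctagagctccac
Cxcl2: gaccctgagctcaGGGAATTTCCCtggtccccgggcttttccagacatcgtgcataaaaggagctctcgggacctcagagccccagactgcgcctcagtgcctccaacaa
Cxcl3: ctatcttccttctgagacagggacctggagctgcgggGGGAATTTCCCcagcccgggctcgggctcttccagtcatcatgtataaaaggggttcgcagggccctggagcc
Cxcl10: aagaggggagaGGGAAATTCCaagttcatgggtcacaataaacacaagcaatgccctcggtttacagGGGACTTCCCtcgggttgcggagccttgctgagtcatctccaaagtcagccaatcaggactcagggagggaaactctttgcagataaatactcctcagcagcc

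In Cxcl1, Cxcl2 and Cxcl3 the same run, GGGAATTTCCC, begins at -71, -97 and -73. Because it reads nearly the same in both directions, it matched on both strands. Of these 3 chemokines, which attract neutrophils through Cxcr2, only Cxcl1 was measured in the eye, as given below. Among the genes called higher in CH than in PR, 2 of the 15 with a promoter held the consensus (Cxcl1 and Cxcl10), and among the other genes 7 of 25 did (Ccl9, Ccl20, Ccl27a, Ccr3, Ccr6, Cxcl2 and Cxcl3). A match is a description of letters and not evidence of binding.

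Of the 66 probes, 46 (69.7%) were well above background on all 3 CH arrays, 44 (66.7%) on all 3 RPE arrays and 33 (50%) on all 3 PR arrays. Over all probes of the array these shares were 62%, 61.1% and 63.4%. The differences between these shares were not tested. By gene, 26 chemokines and 11 receptors were measured in CH, 24 and 11 in RPE, and 20 and 6 in PR. Ccl20, Cxcl2 and Cxcl3 were not well above background on any of the 9 arrays. For 15 of the 55 genes, no probe was well above background on all arrays of any tissue. RPE replicate 2 had 60 measured probes, against 46 and 47 on the other RPE arrays.

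**Figure D1:**
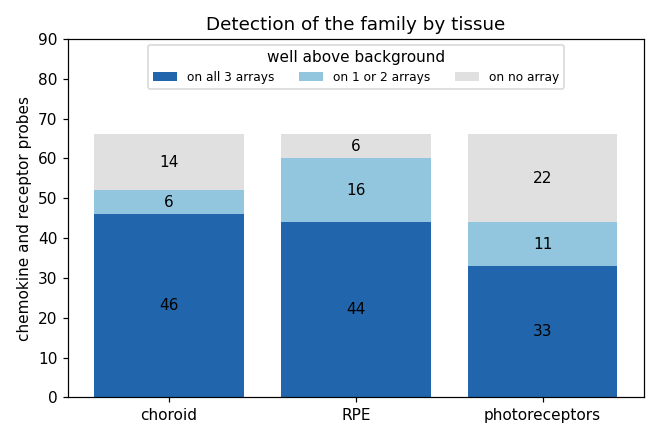
Number of the 66 chemokine and receptor probes (vertical axis) that were well above background in the Cy5 channel on all 3 arrays, on 1 or 2 arrays or on no array of each tissue (bars). In PR, 22 probes were not measured on any array, against 14 in CH and 6 in RPE, where 16 probes were measured on only some arrays.

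The family was highest in CH, intermediate in RPE and lowest in PR. The mean ratios followed this order for 42 of the 66 probes (63.6%), against 20.9% of all probes. In 18 of the 66 (27.3%) the arrays of the 3 tissues were fully separate in this order, against 8.72% of all probes. Against PR, 23 of the 55 genes (41.8%) were called higher in CH, where 13.2% of all genes were called, and 14 (25.5%) were called higher in RPE, where 11.2% were called. No member was called lower in CH than in PR, where 6.92% of all genes were called, or lower in RPE than in PR, where 5.71% were called. At an unadjusted p under 0.05, 2 of the 55 members were lower in CH than in PR and 4 were lower in RPE than in PR. Of all 31829 genes, 10504 and 9545 were lower in these comparisons at that p. Against CH, 5 of the 55 genes (9.09%) were called lower in RPE, where 1.81% of all genes were called. None was called higher in RPE than in CH, where 0.217% of all genes were called. At an unadjusted p under 0.05, 4 members were higher in RPE than in CH, against 6149 of all 31829 genes. The median log2 difference over the 66 probes was -0.40 for RPE minus CH, 0.71 for RPE minus PR and 0.82 for CH minus PR, and over all probes it was 0.04, -0.01 and -0.06.

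The counts were split by kind without a test between the kinds. Of the 37 chemokines, 15 were called higher in CH than in PR, 9 higher in RPE than in PR and 3 lower in RPE than in CH. Of the 18 receptors, these numbers were 8, 5 and 2. The median log2 difference of the chemokine probes was -0.45 for RPE minus CH, 0.46 for RPE minus PR and 0.58 for CH minus PR, and that of the receptor probes was -0.20, 0.74 and 0.93. All 14 genes called in RPE against PR were among the 23 called in CH against PR.

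**Figure D2:**
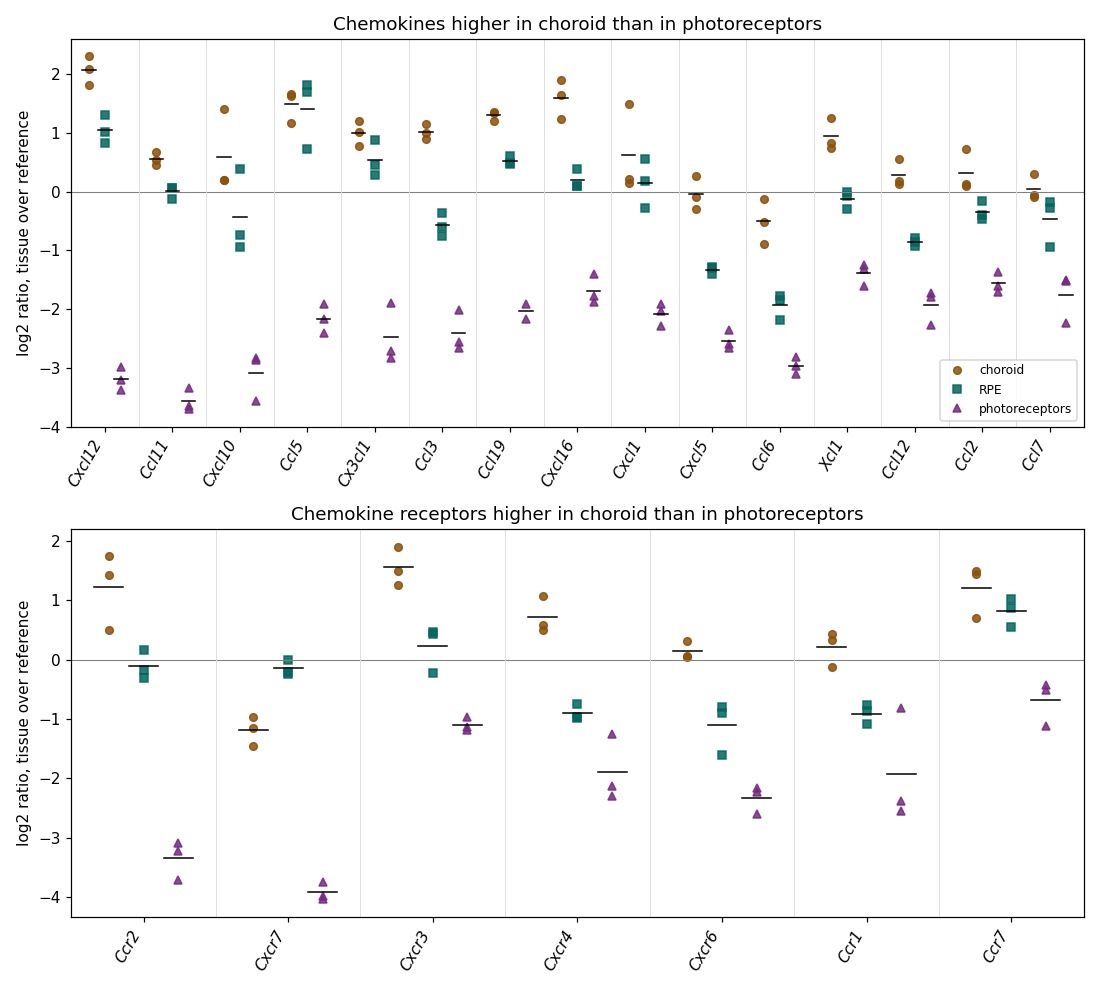
Log2 ratio of tissue over reference (vertical axis) on each array for the 15 chemokines and for 7 of the 8 receptors that were called higher in CH than in PR. Points are single arrays, short lines are means, and genes stand in order of the CH minus PR difference. The PR arrays lie below all CH arrays in all genes shown, and Cxcr7 is the gene with RPE above CH.

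Cxcl12, the chemokine of stromal and endothelial cells that retains and guides stem cells, leukocytes and growing vessels, differed most between CH and PR. On the CH arrays its ratios were 2.30, 2.09 and 1.82, on the RPE arrays 1.01, 1.31 and 0.82, and on the PR arrays -3.21, -2.98 and -3.38. The 3 tissues did not overlap. Expression was 38.3-fold higher in CH than in PR (log2 difference 5.26, SE 0.17, adjusted p = 7.41e-09) and 18.8-fold higher in RPE than in PR (4.23, SE 0.17, adjusted p = 3.72e-08). RPE was 2.04-fold lower than CH (-1.03, SE 0.17, adjusted p = 0.0023), which is under the fold required for a call. The reported probe lies at chr6:117131227-117131286 (mm9, the build of the array's annotation). A second probe for Cxcl12, at chr6:117125026-117125085, gave a log2 difference of 6.05 for CH minus PR and of -1.31 for RPE minus CH.

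Its 2 receptors were distributed in opposite ways between CH and RPE. Cxcr4, the signalling receptor of Cxcl12, had ratios of 0.58, 1.07 and 0.51 in CH, of -0.75, -0.97 and -0.99 in RPE, and of -1.25, -2.13 and -2.30 in PR. It was 3.09-fold lower in RPE than in CH (-1.63, SE 0.26, adjusted p = 0.00199) and 6.14-fold higher in CH than in PR (2.62, SE 0.26, adjusted p = 1.26e-05). Cxcr7 (Ackr3), which binds Cxcl12, removes it from the surroundings and signals through arrestins, had ratios of -1.16, -1.45 and -0.97 in CH, of -0.24, -0.20 and 0.00 in RPE, and of -3.98, -3.75 and -4.04 in PR. All RPE arrays lay above all CH arrays, and all PR arrays were lowest. Cxcr7 was 2.07-fold higher in RPE than in CH (1.05, SE 0.14, adjusted p = 0.00093), under the fold required, 13.7-fold higher in RPE than in PR (3.78, SE 0.14, adjusted p = 2.77e-08) and 6.64-fold higher in CH than in PR (2.73, SE 0.14, adjusted p = 1.33e-07). It was the largest difference of the family on the side of RPE, and within the 2 slides that held both tissues it was 0.95 and 1.25. The Cxcr4 difference was -1.42 and -2.04 on these slides. Without RPE replicate 2, the adjusted p of Cxcr4 was 0.0101 (log2 difference -1.59) and the gene was no longer called.

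**Figure D3:**
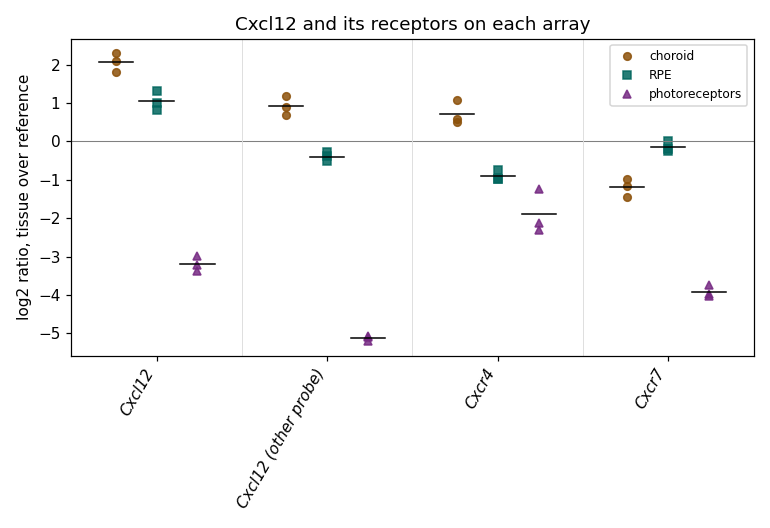
Log2 ratio of tissue over reference (vertical axis) on each array for Cxcl12 (both probes), Cxcr4 and Cxcr7. Points are single arrays and short lines are means of 3 arrays. For Cxcl12 and Cxcr4 the order is CH, RPE, PR from high to low, whereas for Cxcr7 it is RPE, CH, PR.

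Cxcl16 and Cx3cl1 are the chemokines that are made as membrane proteins on a mucin stalk and can be shed. Cxcl16, which also takes up oxidised lipoproteins, had ratios of 1.64, 1.90 and 1.24 in CH, of 0.09, 0.39 and 0.09 in RPE, and of -1.88, -1.41 and -1.78 in PR. The tissues were separate, with RPE 2.65-fold lower than CH (-1.40, SE 0.18, adjusted p = 0.000876) and 3.68-fold higher than PR (1.88, SE 0.18, adjusted p = 1.59e-05). Its call against CH was lost without CH replicate 2, where the log2 difference was -1.25. Cxcr6, the receptor of Cxcl16 on T and NK cells, followed the same order. In CH it was 0.06, 0.31 and 0.05, in RPE -0.80, -1.60 and -0.90, and it was not well above background on any PR array. Its level was at least 4.54-fold higher in CH than in PR (adjusted p = 3.99e-06). RPE minus PR passed at the other Cxcr6 probe alone (2.76-fold of the ratios and at least 1.77-fold by the limit, adjusted p = 8.05e-06).

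Cx3cl1 (fractalkine), which engages microglia and monocytes through Cx3cr1, was close between CH and RPE. Its ratios were 1.02, 1.20 and 0.77 in CH, 0.29, 0.88 and 0.46 in RPE, and -2.71, -1.89 and -2.83 in PR. CH and RPE overlapped (RPE minus CH -0.46, SE 0.25, adjusted p = 0.243). Against PR the gene was 11.1-fold higher in CH (adjusted p = 1.38e-06) and 8.1-fold higher in RPE (adjusted p = 4.69e-06). Cx3cr1, which the name rule leaves out, had means of 1.03 in CH, 0.04 in RPE and -1.92 in PR, and it was called higher in both CH and RPE than in PR (adjusted p = 2.02e-07 and 4.37e-06).

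The monocyte-attracting CC chemokines Ccl2, Ccl7, Ccl8 and Ccl12 and their receptor Ccr2 were low in PR. Ccr2, the receptor of inflammatory monocytes, had ratios of 1.75, 1.43 and 0.51 in CH and of 0.17, -0.31 and -0.18 in RPE, and it was not well above background on any PR array. It was at least 9.9-fold higher in CH than in PR (adjusted p = 6.76e-07) and at least 3.86-fold higher in RPE than in PR (adjusted p = 9.62e-06). All CH arrays lay above all RPE arrays, but the difference of -1.33 (SE 0.30) missed the threshold with an adjusted p of 0.0107. Ccl2, its main ligand, had ratios of 0.13, 0.72 and 0.09 in CH, of -0.46, -0.40 and -0.16 in RPE, and of -1.36, -1.70 and -1.61 in PR, and CH was 3.66-fold higher than PR (adjusted p = 9.9e-06). Ccl12 was 4.65-fold higher in CH than in PR (adjusted p = 1.52e-06), and Ccl7, not well above background in PR, was at least 2.84-fold higher (adjusted p = 0.00014). Ccl8 had means of -0.85 in CH, -1.30 in RPE and -2.0 in PR, and its 2.21-fold difference between CH and PR was under the fold required. None of these 4 ligands was called in RPE against either neighbour. The log2 differences for RPE minus PR lay between 0.70 (Ccl8) and 1.29 (Ccl7).

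Ccl3 and Ccl6, chemokines of macrophages, were the CC ligands called lower in RPE than in CH. Ccl3 had ratios of 1.15, 0.99 and 0.90 in CH and of -0.36, -0.61 and -0.75 in RPE, and its probe was not well above background on any PR array. It was 3.01-fold lower in RPE than in CH (-1.59, SE 0.17, adjusted p = 0.000364), and this call was kept when any 1 array was left out. Against PR it was higher by 10.8-fold in CH (adjusted p = 1.18e-07) and by 3.58-fold in RPE (adjusted p = 1.13e-05) on the scale of the ratios. The lower limits set in the Cy5 channel alone came out slightly above these folds, at 11.6 and 3.61. Ccl6 had ratios of -0.89, -0.12 and -0.51 in CH, of -1.77, -2.18 and -1.84 in RPE, and of -2.81, -3.11 and -2.96 in PR. All its tissues were separate. RPE was 2.68-fold lower than CH (-1.42, SE 0.19, adjusted p = 0.000965), but the difference was -1.23 without CH replicate 2 and -1.30 without RPE replicate 2, both under the fold required.

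Ccl5 (RANTES), the chemokine of activated T cells and platelets, did not follow the order of Ccl3. Its ratios were 1.17, 1.67 and 1.63 in CH, 1.69, 0.72 and 1.81 in RPE, and -1.92, -2.41 and -2.16 in PR. CH and RPE overlapped, with a difference of -0.08 (SE 0.28, adjusted p = 0.876) that was 0.35 on one slide and -0.95 on the other. Both were far above PR, by 12.6-fold in CH (adjusted p = 1.92e-06) and 11.9-fold in RPE (adjusted p = 2.81e-06). Ccl4, the close relative of Ccl3, was well above background on all 9 arrays, yet its tissues overlapped, with means of 0.45, 0.26 and 0.01 and SDs of 0.51 to 0.60. Its probe was bright in every tissue, with a mean log2 Cy5 signal of 16.41 in CH, 16.21 in RPE and 15.85 in PR. Whether this signal is specific to Ccl4 was not tested. In each tissue the lowest Ccl4 ratio was that of replicate 2 (-0.13 in CH, -0.42 in RPE and -0.64 in PR). These arrays were on the same slide, so this spread need not lie between samples of a tissue. Ccl4 was not called with the slide as a fixed block either. Ccr1, a receptor of these ligands, was called in CH against PR only. It was measured on 2 CH arrays alone, and it was at least 1.14-fold higher in CH than in PR (adjusted p = 0.000952). Its PR arrays spread from -2.56 to -0.82, and with the slide as a block the log2 difference was 0.89 (adjusted p = 0.016), which ended the call.

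Ccl11 (eotaxin) attracts eosinophils and mast cells through Ccr3. Its ratios were 0.54, 0.68 and 0.45 in CH, 0.07, -0.12 and 0.06 in RPE, and -3.35, -3.65 and -3.70 in PR. It was 17.4-fold higher in CH than in PR (adjusted p = 5.25e-09) and 11.9-fold higher in RPE than in PR (adjusted p = 1.65e-08), while RPE lay 1.46-fold below CH (adjusted p = 0.00931). Its receptor Ccr3 was well above background on 1 RPE array and 1 PR array alone, with means of 0.00, 0.12 and 0.13, and nothing can be read from its order.

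Ccl19 and the Ccl21 genes guide dendritic cells and T cells through Ccr7, mostly along lymphatic vessels. Ccl19 had ratios of 1.33, 1.36 and 1.21 in CH, of 0.47, 0.61 and 0.48 in RPE, and of -2.16 and -1.91 on 2 PR arrays, the third having been left out as an outlier spot. It was 10.1-fold higher in CH than in PR (adjusted p = 3.66e-08), 5.88-fold higher in RPE than in PR (adjusted p = 2.37e-07) and 1.71-fold lower in RPE than in CH (adjusted p = 0.00128). The other Ccl19 probes gave smaller log2 differences for CH minus PR, 1.54 and 1.00, and for RPE minus PR, 1.21 and 0.77. Neither of them was called in RPE against PR. Their CH and RPE arrays overlapped, with RPE minus CH at -0.33 and -0.22 (adjusted p = 0.249 and 0.243). Both RPE differences of Ccl19 given above thus rest on the reported probe. Ccr7 had ratios of 0.70, 1.49 and 1.44 in CH, of 1.02, 0.56 and 0.88 in RPE, and of -0.51, -1.12 and -0.42 in PR. CH and RPE overlapped, and both were higher than PR, by 3.72-fold (adjusted p = 0.000102) and 2.84-fold (adjusted p = 0.000576). The RPE call was lost without PR replicate 2 (log2 difference 1.29). Ccl21b, which has near-identical copies in the mouse genome and whose signal is uncertain for that reason, overlapped in all tissues (means 0.31, 0.42 and 0.15). Its replicate 2 was lowest in each tissue (-0.38 in CH, -0.43 in RPE and -1.03 in PR), and these arrays were on the same slide. Ccl21a differed by 0.89 between CH and PR (adjusted p = 0.00454), under the fold required.

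Cxcl9, Cxcl10 and Cxcl11 are induced by interferon and bring in T cells and NK cells through Cxcr3. Cxcr3 itself had ratios of 1.5, 1.91 and 1.27 in CH, of 0.46, -0.22 and 0.44 in RPE, and of -1.19, -0.97 and -1.14 in PR. It was called in all 3 comparisons, 6.32-fold higher in CH than in PR (adjusted p = 2.55e-06), 2.52-fold lower in RPE than in CH (adjusted p = 0.00192) and 2.51-fold higher in RPE than in PR (adjusted p = 0.00042). The last of these lay at the edge of the threshold and was lost without RPE replicate 1, RPE replicate 3, PR replicate 1 or PR replicate 3 (log2 differences 1.21, 1.22, 1.28 and 1.30). It was also lost with the slide as a fixed or a random block (1.15 and 1.31). The call against CH was lost without CH replicate 2 (-1.16) or RPE replicate 2 (-1.11). On the slides that held both tissues the RPE minus CH difference was -0.93 and -2.13.

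Cxcl10 varied most among the called ligands. Its ratios were 0.20, 0.19 and 1.40 in CH, 0.39, -0.95 and -0.74 in RPE, and -2.83, -3.57 and -2.86 in PR. CH and RPE overlapped (RPE minus CH -1.03, SE 0.41, adjusted p = 0.11), and CH was 12.8-fold (adjusted p = 3.43e-05) and RPE 6.28-fold (adjusted p = 0.000398) higher than PR. Cxcl9 spread more widely still, from -1.07 to 1.12 in CH and from -1.42 to 0.78 in RPE, and no comparison passed at either of its probes. Cxcl11 went the other way. It had ratios of 1.88, 1.76 and 1.47 in CH, of 1.00, 0.90 and 0.49 in RPE, and of 1.70 and 2.46 on 2 PR arrays (the spot of the third was left out), so that RPE was below both neighbours. RPE was 2.44-fold lower than PR (-1.28, SE 0.24, adjusted p = 0.00198), just under the fold required, and 1.87-fold lower than CH (adjusted p = 0.0181). A second Cxcl11 probe gave -0.66 for RPE minus PR (adjusted p = 0.0386) and -0.50 for RPE minus CH (adjusted p = 0.167). At that probe the arrays of all tissues overlapped. The reported Cxcl11 probe was bright in every tissue, with a mean log2 Cy5 signal of 17.98 in CH, 17.75 in RPE and 18.48 in PR. Whether this signal is specific to Cxcl11 was not tested.

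Of the neutrophil chemokines, Cxcl1 and Cxcl5 were called and Cxcl2 and Cxcl3 were not measured. Cxcl1, Cxcl2 and Cxcl3 share the promoter run shown above, but no level can be given for Cxcl2 or Cxcl3. Cxcl1 had ratios of 0.14, 1.49 and 0.22 in CH and of -0.28, 0.18 and 0.56 in RPE, and its probe was not well above background on any PR array. CH and RPE overlapped, and the level was at least 4.52-fold higher in CH than in PR (adjusted p = 7.95e-05) and at least 3.41-fold higher in RPE than in PR (adjusted p = 0.000344). Cxcl5 had ratios of -0.09, 0.26 and -0.29 in CH and of -1.30, -1.29 and -1.41 in RPE, and it was at least 4.78-fold higher in CH than in PR (adjusted p = 3.11e-07). RPE lay 2.45-fold below CH (-1.29, SE 0.14, adjusted p = 0.000413), just under the fold required. Their receptor Cxcr2 was well above background on 1 array alone. Cxcr1 was 1.61-fold higher in CH than in PR (adjusted p = 0.00209), under the fold required.

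Xcl1 (lymphotactin), made by T and NK cells, was at least 2.33-fold higher in CH than in PR (adjusted p = 8.69e-07), from ratios of 0.82, 1.26 and 0.75 in CH. Its probe was well above background on 1 RPE array and on no PR array. Its receptor Xcr1, of cross-presenting dendritic cells, was measured on 1 CH array and 2 RPE arrays.

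The remaining chemokines named here passed no call. Ccl25, which attracts T cells to the gut and thymus, was highest in RPE, with ratios of 0.47, 0.59 and 0.50 there, of -0.37, -0.42 and 0.03 in CH, and of -0.48, -0.57 and -0.80 in PR. The RPE arrays were separate from all others, by 1.71-fold over CH (adjusted p = 0.00336) and 2.21-fold over PR (adjusted p = 6.24e-05), both under the fold required. Its receptor Ccr9 had means of 0.08, 0.29 and -0.01. Ccl27a, a chemokine of skin, was measured by 4 probes on all arrays, with log2 differences of -0.44 to 0.59 for RPE minus PR that differed in sign between probes. For Ccl28 the tissues overlapped, with means of 0.74, 0.68 and 0.40. The homeostatic Cxcl13, Cxcl14 and Cxcl17 were not called in any comparison.

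**Figure D4:**
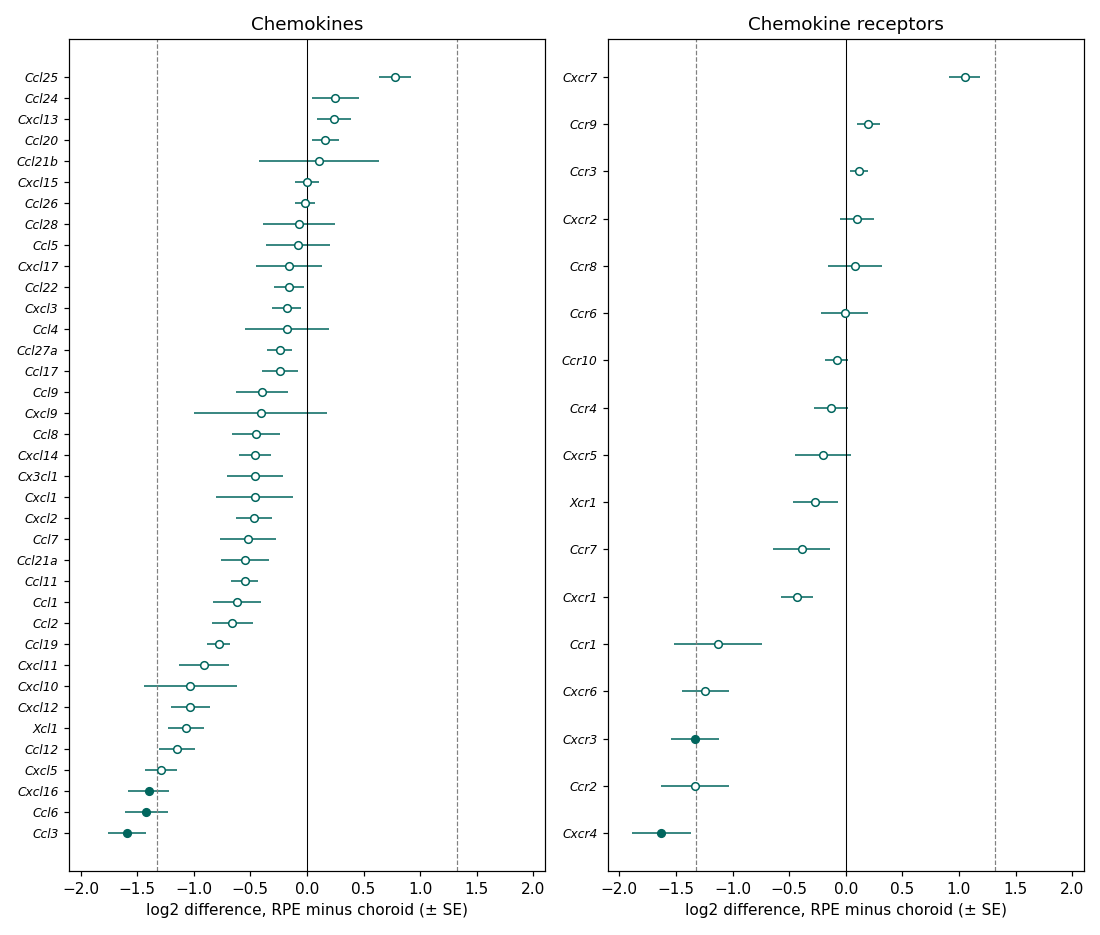
Log2 difference between RPE and CH (horizontal axis, points, with bars of 1 SE) for the reported probe of each of the 37 chemokines and of 17 of the 18 receptors. Filled points were called (fold change above 2.5, dashed lines, and adjusted p below 0.01). The 5 called genes, Ccl3, Ccl6, Cxcl16, Cxcr3 and Cxcr4, are lower in RPE, and Cxcr7 and Ccl25 lie farthest to the other side.

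The 5 genes called between RPE and CH rest on few arrays. Without CH replicate 2, 3 genes were called (Ccl3, Cxcr4 and Cxcl12), without CH replicate 3, 8 genes, and without RPE replicate 2, which stood apart in its detection, 2 genes (Ccl3 and Cxcl16). In the log2 table of the authors none of the 5 passed, at differences of -1.47 to -1.76 and adjusted p-values of 0.0134 to 0.0398. All 5 were lower in RPE on both slides that held the pair of tissues, with differences of -0.93 to -1.58 on the slide with 2 arrays of each and of -1.51 to -2.13 on the slide with 1 of each. PR shared a slide with the other tissues only once. On that slide, with 1 array per tissue, CH was above PR in all 23 called genes, by 0.70 (Ccr1) to 5.07 (Cxcl12).

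Many of the genes lie in clusters. On chromosome 11, 6 genes from Ccl2 to Ccl1 span 139.5 kb (mm9) and 5 genes from Ccl5 to Ccl4 span 138.8 kb. Neighbours differed: in the first cluster, Ccl2, Ccl7, Ccl11 and Ccl12 were called in CH against PR, with log2 differences of 1.80 to 4.12, whereas Ccl1 had 0.44 and was well above background on 1 array alone. In the second, Ccl5, Ccl6 and Ccl3 had differences of 2.45 to 3.65, whereas Ccl9, between Ccl5 and Ccl6, had 0.29 and Ccl4, next to Ccl3, had 0.44, both being measured on all arrays with a spot for them. On chromosome 9, 6 receptor genes from Ccr9 to Ccr2 span 332.6 kb, of which Cxcr6, Ccr1 and Ccr2 were called. Ccr3, between Ccr1 and Ccr2, had a difference of -0.14. On chromosome 5, 2 of the 5 genes from Cxcl5 to Cxcl2 were called (144 kb) and 1 of the 3 from Cxcl9 to Cxcl11 (35.8 kb).

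**Figure D5:**
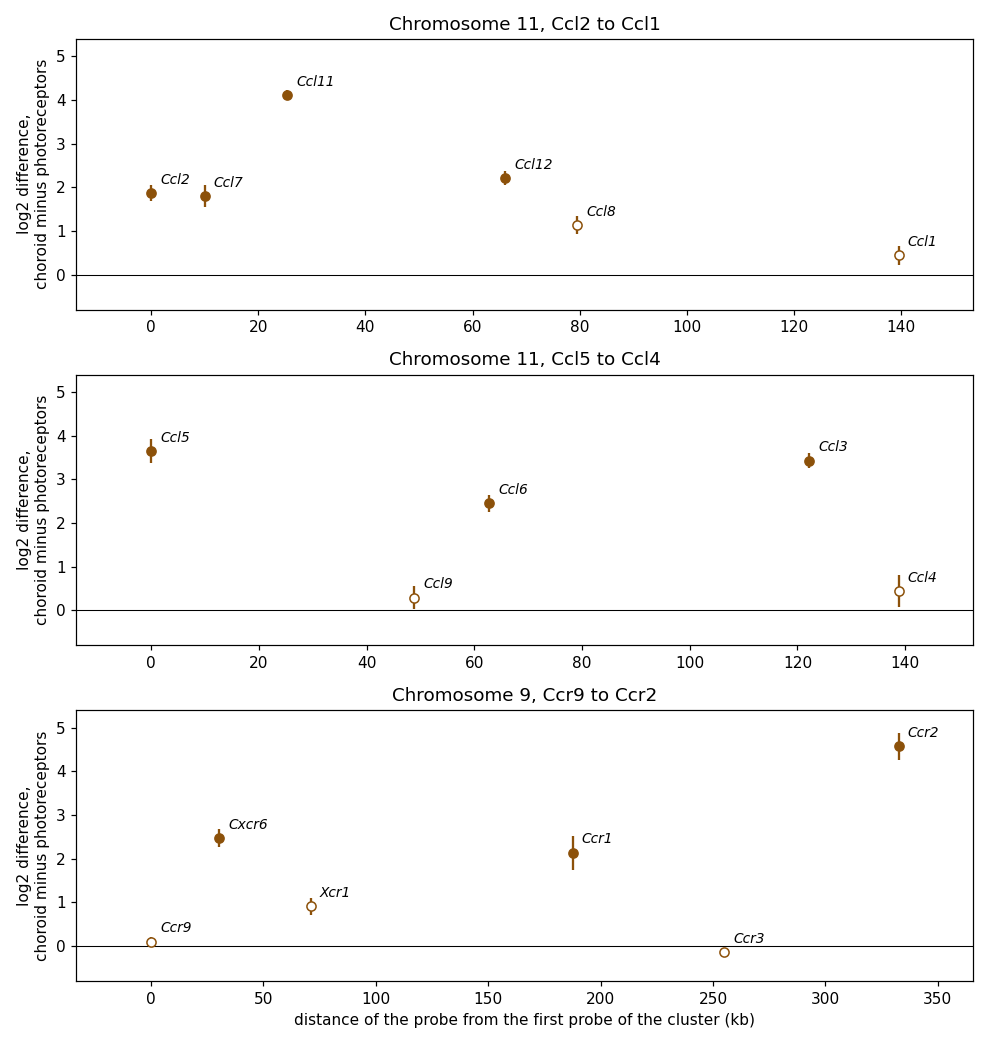
Log2 difference between CH and PR (vertical axis, points, with bars of 1 SE) of each gene in 3 clusters, against the distance of its probe from the first probe of the cluster in kb (horizontal axis). Filled points were called higher in CH. Called and uncalled genes stand side by side, as with Ccl3 (3.43) beside Ccl4 (0.44).

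The chemokine pathway outside the name rule was described by 2 further lists. Of 12 other ligands, receptors and binding partners, 10 were called higher in CH than in PR and 9 higher in RPE than in PR, 1 was lower in both, and none was called between RPE and CH. Over all genes, 13.2% were called higher in CH than in PR and 11.2% higher in RPE than in PR, and 6.92% and 5.71% were called lower. The median log2 difference of the 12 genes for CH minus PR was 2.24, against -0.06 over all probes. The platelet chemokines Pf4 and Ppbp were both low in PR, with log2 differences for CH minus PR of 3.53 (adjusted p = 1.44e-07) and 2.42 (adjusted p = 0.000164). The scavenging receptor Ccbp2 (Ackr2), which clears inflammatory CC chemokines, had nearly the same level in RPE and CH (means 1.29 and 1.16) and was lower in PR by 2.5 and 2.37 (adjusted p = 5.05e-07 and 5.63e-07). Ccrl2, a chemerin-binding receptor, differed by 1.93 between CH and PR (adjusted p = 3.87e-07). The chemerin gene Rarres2 differed by 3.78 (adjusted p = 4.72e-09), and Cd74, the receptor of the cytokine Mif and invariant chain of antigen presentation, by 3.26 (adjusted p = 5.13e-07). The exception was Darc (Ackr1), which binds chemokines on red blood cells and venules. Its ratios were -2.17, -2.08 and -2.22 in CH, -1.64, -1.86 and -1.98 in RPE, and -0.32, -0.04 and -0.72 in PR. PR was above both, with log2 differences of -1.47 for RPE minus PR (adjusted p = 3.88e-05) and of -1.80 for CH minus PR (adjusted p = 7.46e-06). Dpp4, the peptidase that trims and inactivates Cxcl12, had means of -1.22 in CH, -0.20 in RPE and -3.33 in PR, with RPE minus CH at 1.02 (adjusted p = 0.00232), which is under the fold required.

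Over all genes, 13.2% were called higher in CH than in PR, 11.2% higher in RPE than in PR and 1.81% lower in RPE than in CH. Of 42 signalling genes downstream of the receptors, 21 were called higher in CH than in PR, 16 higher in RPE than in PR and 3 lower in RPE than in CH, and the median for CH minus PR was 1.35. These 3 were Vav1 (-1.58, adjusted p = 0.000297), an exchange factor of blood cells, Rgs1 (-1.67, adjusted p = 0.00455), a brake on chemokine receptor signalling in lymphocytes, and Pik3r5 (-1.39, adjusted p = 0.000175), a subunit of the kinase activated by G proteins. Pik3cd, the phosphoinositide kinase of leukocytes, had ratios of 2.11, 1.95 and 1.70 in CH, of 0.98, 0.74 and 0.98 in RPE, and of -2.25, -1.86 and -2.19 in PR, with 4.02 for CH minus PR (adjusted p = 1.44e-08). Gnb1, a G protein subunit that is also part of rod phototransduction, was the one gene of the list called higher in PR than in CH (CH minus PR -3.29, adjusted p = 3.83e-07).

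Cells that carry chemokine receptors were followed by their markers. For the counts below, the shares over all genes were 13.2% (CH higher than PR), 11.2% (RPE higher than PR) and 1.81% (RPE lower than CH). Of 14 macrophage and microglia markers, 12 were called higher in CH than in PR, 9 higher in RPE than in PR and 5 lower in RPE than in CH. Their summed Cy5 signal was 320000 to 413000 in CH, 271000 to 290000 in RPE and 88000 to 122000 in PR, and of these markers Cd163 was not well above background on any CH or PR array. Of 16 markers of other leukocytes, 7, 6 and 1 were called in these comparisons, and the B and NK cell markers Cd79a and Ncr1 were not well above background on any CH or PR array. The median RPE minus CH of this list was -0.08, against -1.15 for the macrophage and microglia markers. Of 8 mast cell markers, 4, 2 and 0 were called, and 1 was called lower in CH and in RPE than in PR. Of 9 markers of endothelium, a known source of Cxcl12, 8 were called higher in CH and 8 higher in RPE than in PR, and none was called between RPE and CH. All 7 fibroblast markers were called higher in CH and in RPE than in PR and lower in RPE than in CH, with a summed Cy5 signal of 940000 to 1050000 in CH, 288000 to 392000 in RPE and 47300 to 61200 in PR. Signal of markers of the other layers was measured in every tissue. The summed signal of 12 rod and cone markers was 594000 to 938000 in CH and 895000 to 1150000 in RPE, against 2700000 to 3860000 in PR. The summed signal of 10 RPE markers was 1850000 to 2330000 in CH and 544000 to 631000 in PR, against 2630000 to 2860000 in RPE. The CH samples thus held much RPE marker signal. Of the 10 RPE markers, 8 were called higher in RPE than in PR, whereas Otx2 (means 1.54 and 0.67) and Best1 were not. The source of the summed RPE marker signal in PR was not tested. The part of the marked cell types in the chemokine differences was not tested either.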

How the data were processed

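The members and gene lists were chosen with earlier results of these data known. Per the labels, 9 dual-colour Agilent arrays were scanned and read with Feature Extraction 9.5.3.1. The deposited intensity columns (mean and median background signal of both channels), scanner flags and log10 ratios were used, together with the deposited log2 table of the authors, which held Cy5 values and whose normalization is not given in the sources used here. With limma 3.58.1 (R 4.3.3), intensities were corrected by normexp (offset 50) and loess within arrays, control spots having weight 0. Between 228 and 586 outlier spots per array were left out, and spots of 1 probe were averaged. Tissue means were fitted over all 9 arrays with moderated statistics, and p-values were adjusted over 39429 probes. The script was tested on simulated data. Arrays numbered alike are not paired by the labels. The p-values rest on the spread between samples of the same tissue, pooled over the 3 tissues and moderated over probes. The slide was not a term of this fit, so this spread also holds differences between slides. The number of arrays limits the precision. The text names every called member, the 5 with the brightest probes and, outside the family, the 8 called genes with the largest difference plus a fixed few; other names were chosen after their values were seen. Results for 1 member and 1 signalling gene that this rule names are not reported here. The probe of highest mean intensity is reported.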

Additional observations from a re-analysis of the deposited data

How the results depend on the processing

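Each call of a named gene at its reported probe was recomputed under 30 other settings at most, which gave 1193 values for 41 calls. The call of Cxcr6 in RPE against PR, which passed at the other probe alone, is not among the 41. Of these, 1150 kept their direction and side of the threshold, 43 kept the direction but missed the threshold, and 0 reversed. The looser thresholds, a fold change above 2 or an adjusted p below 0.05, could not lose a call. Each of them added 41 kept values to this count. Leaving out an array of the tissue outside a comparison also left its log2 difference unchanged. The 23 genes called higher in CH than in PR stayed within 1.5 times that number under every setting that was run for them, and when 1 array was left out they numbered 23 to 24. Called lower in RPE than in CH, against 5 members (576 of all genes), were 9 (1089) with median centring in place of loess, 10 (1206) at a fold change above 2, 3 (442; Ccl3, Ccl6 and Cxcl5) with Cy5 alone after loess and scaling between arrays, 2 (430; Cxcl12 and Cxcl5) with Cy5 alone after quantile normalization, and 1 (362; Cxcl5) with the log2 table of the authors. Under the last 2 settings none of the 5 passed, at log2 differences of -1.43 to -1.78 and adjusted p-values of 0.0107 to 0.0398. Leaving out 1 array gave 2 to 8. On the 4 arrays of slide 2 alone, a setting chosen after seeing the data, 0 were called (0 of all genes). Called higher in RPE than in PR, against 14 members (3577 of all genes), were 23 (4601) without normalization, 22 (4500) at a fold change above 2, and 13 to 16 when 1 array was left out. In RPE against PR, 1 gene (Cxcl11) was called lower instead of 0 with the Feature Extraction log ratio, with the slide as a fixed block and at a fold change above 2, and 0 to 1 when an array was left out. In RPE against CH, 1 gene (Cxcr7) was called higher instead of 0 at a fold change above 2. With replicate number as a block there were 6 genes lower in RPE than in CH, 14 higher in RPE than in PR and 24 higher in CH than in PR, and no call of a named gene was lost. Arrays of the same number correlated at -0.08 to 0.29 and those of different numbers at -0.31 to 0.25 in their deviations from the tissue means, so the numbers were not taken as pairs. The cause of these shifts was not tested. Signal over background limits Ccr1, Xcl1, Xcr1, Cxcl2, Cxcl3 and the lower limits against PR.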
